A study of Mus musculus with 49 samples.

Results

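A G1 sort gate was set against unsorted cells in a haploid mouse embryonic stem (ES) cell line by single-cell Hi-C, which records the contacts between chromosome segments in each cell. The cells sorted for G1 carry the condition 2i_G1 in the authors' table, and the cells taken as unsorted carry the condition 2i_all. These names come from that table and not from the sample labels. The reading of 2i_all as unsorted rests on its name, and the marker that set the haploid G1 gate is not given in the sources used here, although the protocol mentions Hoechst and Geminin for sorting in general. Of 4098 cells of the series that passed the authors' quality control, 666 belong to these conditions, 271 of them in 2i_G1 and 395 in 2i_all. All come from the haploid line H129-1, were fixed with formaldehyde and, by the condition name, came from 2i culture, that is, medium free of serum that holds differentiation inhibitors, without feeders. The other 581 of the 1247 passing haploid cells carry the condition Serum_G1/S and are used only where named.

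A cell in G1 has not yet copied its DNA, whereas a cell in G2 has copied all of it, so a gate on DNA content separates the ends of interphase more sharply than it separates G1 from a cell that has just begun to replicate. Geminin, an inhibitor of replication licensing, is degraded as mitosis ends and accumulates again from S phase on. In Hi-C, chromosomes leaving mitosis are known for contacts at the distances of the condensed mitotic chromosome, and interphase chromosomes for short-range contacts within domains. Haploid ES cultures are known to turn diploid over time, and a diploid G1 cell holds as much DNA as a haploid G2 cell. DNA content per cell was not analysed here.

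The gated cells came from 5 libraries, haploid 10 to 14, with 14, 57, 55, 73 and 72 passing cells of 326 listed. The unsorted cells came from 8 libraries, haploid 1 to 8, with 46, 19, 77, 6, 4, 51, 101 and 91 passing cells of 652 listed, a total that includes 7 cells of haploid 9, none of which passed. Of the unsorted libraries, 6 held at least 10 passing cells. Per library, 77.8% to 91.9% of the listed gated cells passed quality control, against 47.4% to 100.0% of the listed unsorted cells in haploid 1 to 8. The median number of contacts per cell lay between 30994 in haploid 10 and 79017 in haploid 14 among gated libraries. Among unsorted libraries it lay between 25556 in haploid 6 and 88902 in haploid 2. Haploid 10 stands apart from the other gated libraries with few cells and few contacts. No library held both conditions, so the gate and the handling of each library cannot be told apart. Tests treat a library as 1 sample. Whether libraries represent separate cultures is not stated, and p-values therefore reflect spread among libraries, which may be technical.

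Gated cells fell almost entirely into the authors' G1 and early-S groups, and unsorted cells mostly into late-S/G2. The authors' group places each cell in post-M (just after mitosis), G1, early-S, late-S/G2 or pre-M (just before mitosis). In gated haploid 10 to 14, the share of cells in G1 was 42.9%, 57.9%, 40.0%, 45.2% and 62.5%. In unsorted haploid 1 to 8 it was 8.70%, 21.1%, 6.49%, 0%, 0%, 1.96%, 16.8% and 7.69%. The lowest gated library thus lay above the highest unsorted one. The mean was 49.7% ± 9.90 (SD, n = 5) in gated and 7.84% ± 7.70 (n = 8) in unsorted libraries, a difference of 41.9 percentage points.

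Early-S cells were also more frequent behind the gate. They made up 57.1%, 40.4%, 58.2%, 50.7% and 34.7% of haploid 10 to 14, against 28.3%, 26.3%, 31.2%, 16.7%, 0%, 33.3%, 32.7% and 30.8% of haploid 1 to 8. The groups of libraries did not overlap, but the gap between gated haploid 14 and unsorted haploid 6 was narrow. Late-S/G2 cells, in contrast, were 0%, 1.75%, 1.82%, 4.11% and 2.78% of the gated libraries and 52.2%, 47.4%, 57.1%, 83.3%, 100.0%, 64.7%, 49.5% and 60.4% of the unsorted ones. In each of these 3 groups the exact two-sided permutation test of library labels gave p = 0.00155, the smallest it allows with 5 against 8 libraries, and an adjusted p of 0.00259 over the 5 groups. Pooled over libraries, 139 of 271 gated cells were in G1, 51.3% with an exact Clopper-Pearson 95% interval of 45.2% to 57.4%. A further 125 gated cells, 46.1% (40.1% to 52.3%), were in early-S. Of the 395 unsorted cells, 38 were in G1, 9.62% (6.90% to 12.97%), and 121 in early-S, 30.6% (26.1% to 35.4%). These intervals cover counting error only.

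Cells flanking mitosis were not seen behind the gate. Pre-M cells numbered 0 of 271, which allows a share of up to 1.11%, against 11 of 395 unsorted cells. The same limits hold for post-M cells, with 0 of 271, against 1 of 395 unsorted cells, which lay in haploid 1. Neither difference passed (exact p = 0.0870 and adjusted p = 0.109 for pre-M, exact p = 1 for post-M). With the unsorted libraries limited to the 6 with at least 10 passing cells, a limit chosen after the data had been seen, pre-M passed with a difference of -3.54 percentage points and an exact adjusted p of 0.0325. The 11 unsorted pre-M cells lay in haploid 1, 2, 3, 7 and 8, with 4, 1, 4, 1 and 1 cells.

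**Figure D1:**
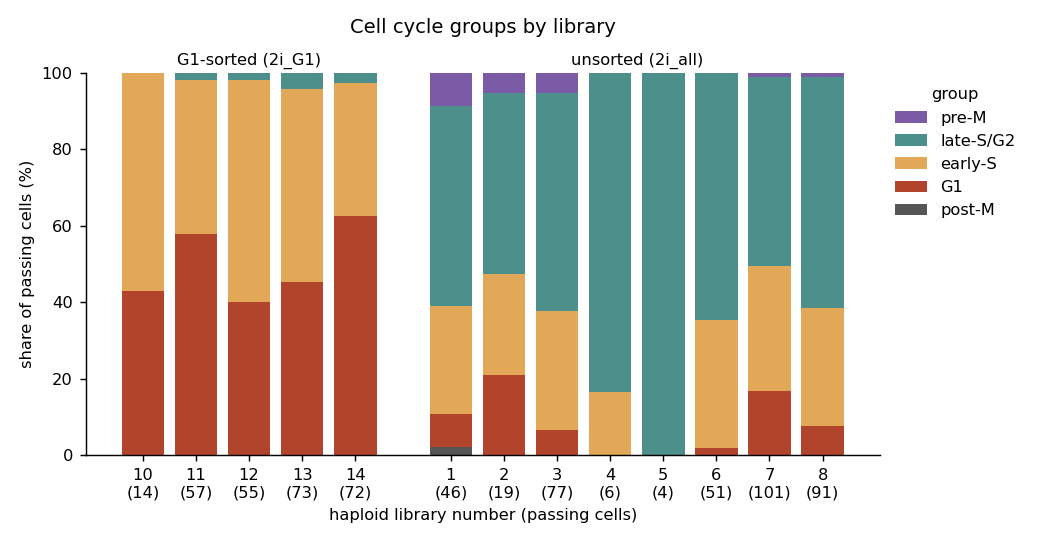
Each bar is a library and shows the share of its passing cells, in percent, in each of the authors' cell cycle groups, with the number of passing cells in brackets under the library number. G1-sorted libraries are nearly all G1 and early-S, whereas late-S/G2 takes at least 47.4% of each unsorted library.

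About as many gated cells lay in early-S as in G1, and their place along the authors' order shows how far the gate reached. The authors ranked all 1247 passing haploid cells, with post-M at positions 1 to 3, G1 at 4 to 327, early-S at 328 to 886, late-S/G2 at 887 to 1226 and pre-M at 1227 to 1247. The median gated cell stood at position 318 and the median unsorted cell at 974. The 25th to 75th percentile of position ran from 206.5 to 493 in gated cells, and from 567.5 to 1112 in unsorted cells. Of the gated cells, 85.6% stood before or at position 607, the middle of early-S, compared with 28.4% of the unsorted cells. Only 2.58% of gated cells stood after early-S, compared with 59.5% of unsorted cells.

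Within early-S the gated cells leaned towards the start. The share of a library's early-S cells in the first part of that range, up to position 607, was 87.5%, 78.3%, 71.9%, 73.0% and 72.0% in haploid 10 to 14. In unsorted haploid 1, 2, 3, 6, 7 and 8 it was 69.2%, 80.0%, 58.3%, 58.8%, 51.5% and 64.3%, and the single early-S cell of haploid 4 also lay there. The shares overlap, since unsorted haploid 2 and the single cell of haploid 4 lay within or above the gated range. The mean position of early-S cells was 511 ± 26.4 (SD, n = 5) in gated and 577 ± 45.4 (n = 6) in unsorted libraries, with exact p = 0.0216 and adjusted p = 0.0577 over 16 features. Without unsorted haploid 1 the difference grew to -78.2 positions and passed (exact adjusted p = 0.0254), and without gated haploid 10 it was -54.8 (exact adjusted p = 0.109).

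Over all passing cells, without regard to group, gated libraries had fewer contacts in the near band of distances and more in the mitotic band, and their far contacts spanned longer distances. Of 16 features tested, 11 passed an adjusted p of 0.05 (68.8%), with 4 higher (25%) and 7 lower (43.8%) in gated libraries, and the libraries of the conditions did not overlap for 7 (43.8%). The near-band share, the part of a cell's contacts in a short range of distances whose limits are not stated, was 60.5%, 58.8%, 61.2%, 61.1% and 59.3% in gated haploid 10 to 14. It was 74.7%, 74.0%, 76.0%, 81.1%, 83.8%, 77.7%, 74.3% and 76.5% in unsorted haploid 1 to 8. Every gated library lay below every unsorted one, with a difference of -17.1 percentage points (exact p = 0.00155, adjusted p = 0.00355).

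The mitotic-band share, from a band the authors named so, was 14.6%, 14.7%, 14.4%, 14.2% and 15.0% in gated and 11.5%, 10.7%, 10.96%, 8.20%, 6.87%, 9.36%, 10.8% and 9.91% in unsorted libraries. Again no libraries overlapped (difference 4.78 points, exact adjusted p = 0.00355). Far contacts within chromosomes had a mean distance of 31.8, 31.8, 30.9, 31.8 and 32.2 Mb in gated libraries. In unsorted libraries it was 25.9, 25.1, 26.6, 27.05, 27.02, 27.1, 26.4 and 26.8 Mb. Far contacts in gated libraries were thus 5.20 Mb longer on average, with a gap of several Mb between the nearest libraries (exact adjusted p = 0.00355). In units of the pooled SD of library means this was the largest of the 16 differences, at 8.43.

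Features of domains, compartments and chromosome alignment differed as well. Mean insulation, which scores how strongly domain borders separate their sides, was 2.37 ± 0.0178 (SD, n = 5) in gated and 2.26 ± 0.0423 (n = 8) in unsorted libraries, with no overlap (exact adjusted p = 0.00355). Compartment scores describe how far active and inactive chromatin keep to themselves. The score within chromosomes was 0.301 ± 0.0165 in gated and 0.375 ± 0.0310 in unsorted libraries (exact adjusted p = 0.00355, no overlap), and the score between chromosomes was 0.183 ± 0.0219 in gated and 0.234 ± 0.0216 in unsorted libraries (exact adjusted p = 0.00553, with overlap). The authors' alignment score between chromosomes, whose scale is not defined, was 0.173, 0.187, 0.204, 0.170 and 0.183 in gated libraries. In unsorted libraries it was 0.297, 0.329, 0.269, 0.253, 0.237, 0.266, 0.286 and 0.282, all above the gated ones (difference -0.0940, exact adjusted p = 0.00355).

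The replication score, whose lowest value among haploid cells is 1 and whose definition is not stated, was 1.15 ± 0.0336 (SD, n = 5) in gated and 1.21 ± 0.0321 (n = 8) in unsorted libraries (exact adjusted p = 0.0249). The libraries overlap, and with only cells of 39238 to 83770 contacts, the 25th to 75th percentile of both conditions, the difference was -0.0292 and did not pass (exact adjusted p = 0.265). Nor did it pass with at least 10 cells per library, with medians over cells or with libraries of a median of at least 60000 contacts (differences of -0.0460, -0.0573 and -0.0466, exact adjusted p = 0.0693, 0.0704 and 0.127). The call was also lost without gated haploid 10, 13 or 14 (differences of -0.0503, -0.0568 and -0.0453, exact adjusted p = 0.0646, 0.0529 and 0.0646). The share of contacts between chromosomes was 6.16% ± 0.190 in gated and 5.40% ± 0.530 in unsorted libraries (exact adjusted p = 0.00746). The largest chromosome coverage deviation of a cell, a quality measure of uneven coverage, was 0.252 ± 0.0319 in gated and 0.388 ± 0.0816 in unsorted libraries (exact adjusted p = 0.00553). Under the same limit on contacts these differences were 0.503 points and -0.0905, and neither passed (exact adjusted p = 0.147 and 0.109). The mean position in the order was 359 ± 28.9 in gated and 887 ± 118 in unsorted libraries (exact adjusted p = 0.00355). Loops did not pass. The log2 enrichment of loops the table calls EE was 1.11 ± 0.17 in gated and 0.97 ± 0.16 in unsorted libraries (exact adjusted p = 0.174), and that of LL loops was 1.41 ± 0.13 in gated and 1.25 ± 0.24 in unsorted libraries (exact adjusted p = 0.240). Contacts per cell averaged 73739 ± 15475 in gated and 69006 ± 23552 in unsorted libraries (exact adjusted p = 0.733), and the duplicated share was 1.06% ± 0.241 in gated and 1.82% ± 0.918 in unsorted libraries (exact adjusted p = 0.153). With only libraries of a median of at least 60000 contacts, the duplicated share passed (difference -1.43 points, exact adjusted p = 0.0254).

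The overall differences can be split, over pooled cells and with no test, into a part from the unequal mix of groups and a part from differences within groups. The part within groups weighs each group by the mean of its shares in both conditions. Late-S/G2, with 56.7% of unsorted and 2.58% of gated cells, thus weighs on it although only 7 gated cells stand behind it. For the near-band share, the pooled difference was -15.7 percentage points, of which -12.3 came from the mix and -3.40 from within groups. For the mitotic band it was 4.12 points, with 3.48 from the mix and 0.649 from within groups. Both compartment scores were split alike, with 82.8% of the difference from the mix within chromosomes and 95.2% between chromosomes. Far contacts went the other way, since 0.673 Mb of a pooled difference of 5.20 Mb came from the mix and 4.52 Mb from within groups. The alignment score had a pooled difference of -0.0973, with 0.00655 from the mix and -0.104 from within groups. Coverage deviation was similar, with 87.3% from within groups. For the replication score the parts opposed each other, -0.0894 from the mix and 0.0416 from within groups, and insulation likewise had 0.132 from the mix and -0.0391 from within groups.

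Within G1, no feature passed over 16 tests (0%), with 139 gated cells in 5 libraries against 37 unsorted cells in the 5 unsorted libraries that held at least 3 G1 cells, haploid 1, 2, 3, 7 and 8 with 4, 4, 5, 17 and 7 cells. With 5 against 5 libraries the exact test cannot go below p = 0.00794. Over 16 features, a value at this limit passes only where enough other features have a low p too. The lack of a pass in G1 therefore does not show equal values. For 2 features the libraries did not overlap (12.5%), and both reached the exact p of 0.00794 with an adjusted p of 0.0635, while 5 of the 16 had an unadjusted p under 0.05. The mean distance of far contacts in G1 cells was 27.5, 30.2, 28.5, 30.6 and 31.5 Mb in gated haploid 10 to 14. It was 25.8, 24.9, 25.4, 23.8 and 26.6 Mb in unsorted haploid 1, 2, 3, 7 and 8. All gated libraries lay higher, by 4.34 Mb on average, with gated haploid 10 nearest to the unsorted range. The alignment score in G1 cells was 0.287, 0.212, 0.264, 0.203 and 0.192 in gated and 0.308, 0.344, 0.330, 0.371 and 0.312 in unsorted libraries. All gated libraries lay lower, with a difference of -0.102. Without gated haploid 10, the lowest in distance and highest in alignment here, the differences were 4.89 Mb and -0.115 (exact adjusted p = 0.0847 each).

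The contact bands of G1 cells overlapped between the conditions. The near-band share in G1 cells was 54.1% ± 0.261 (SD, n = 5) in gated and 55.1% ± 1.43 (n = 5) in unsorted libraries (exact p = 0.159), and the mitotic-band share was 16.4% ± 0.345 in gated and 16.8% ± 1.07 in unsorted libraries (exact p = 0.429). The mean position of G1 cells was 186 ± 19.5 in gated and 154 ± 8.96 in unsorted libraries (exact p = 0.0159, adjusted p = 0.0847), a difference of 31.7 that shrank to 18.9 with at least 1 cell per library and to 4.42 with cells of 39238 to 83770 contacts (exact adjusted p = 0.571 and 0.952). Their replication score was 1.13 ± 0.0350 against 1.09 ± 0.0176 in unsorted libraries (exact p = 0.0476, adjusted p = 0.152). Coverage deviation was 0.263 ± 0.0393 in gated and 0.360 ± 0.0681 in unsorted libraries (exact p = 0.0317, adjusted p = 0.127). Contacts per G1 cell averaged 70374 in gated and 71222 in unsorted libraries (exact p = 0.952), with single libraries at 42423 to 84775 in gated and 37730 to 104208 in unsorted libraries. This difference of -847 turned sign with the libraries chosen, and by cell the gated G1 cells were deeper, with a median of 69285 contacts over 139 cells against 43364 over 38 unsorted cells.

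Within early-S, 5 of 16 features passed (31.2%), 2 of them higher (12.5%) and 3 lower (18.8%) in gated libraries, and for 4 the libraries did not overlap (25%). The comparison had 125 gated cells in 5 libraries and 120 unsorted cells in 6 libraries, haploid 1, 2, 3, 6, 7 and 8 with 13, 5, 24, 17, 33 and 28 cells. Far contacts in early-S cells spanned 35.1, 34.5, 32.5, 32.9 and 33.8 Mb in gated haploid 10 to 14, and 26.3, 28.2, 29.2, 27.6, 28.6 and 28.6 Mb in the unsorted libraries. The nearest libraries, gated haploid 12 and unsorted haploid 3, were still over 3 Mb apart, and the mean difference was 5.69 Mb. The alignment score was 0.0875, 0.145, 0.163, 0.142 and 0.160 in gated and 0.322, 0.282, 0.251, 0.295, 0.229 and 0.283 in unsorted libraries. Its difference was -0.137, with gated haploid 10 well below the other gated libraries. Without haploid 10 the difference was -0.124 for alignment and 5.34 Mb for far contacts, both past the threshold (exact adjusted p = 0.0305). The alignment call was lost with at least 1 cell per library, which adds the single early-S cell of unsorted haploid 4 (-0.101, exact adjusted p = 0.131). With at least 10 cells, 4 against 5 libraries, the alignment difference was -0.123 and far contacts differed by 5.36 Mb (exact adjusted p = 0.0508 each). Fewer libraries raise the smallest p the exact test allows, so the lack of a pass there depends on that limit too.

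The near-band share of early-S cells was 65.1%, 64.5%, 65.9%, 66.0% and 66.8% in gated and 68.5%, 71.3%, 70.6%, 69.9%, 71.6% and 69.5% in unsorted libraries. The difference was -4.55 points. The mitotic-band share was 12.9% ± 0.318 (SD, n = 5) in gated and 11.7% ± 0.469 (n = 6) in unsorted libraries. The authors' groups are stretches of the order and separate largely on these bands, so band shares and position are not independent of the grouping. Far contacts, alignment and both band shares each had exact p = 0.00433, the smallest possible with 5 against 6 libraries. Each had an adjusted p of 0.0173. Coverage deviation was 0.236 ± 0.0243 in gated and 0.382 ± 0.101 in unsorted libraries (exact adjusted p = 0.0277). This call was lost without gated haploid 10, 12, 13 or 14 or without unsorted haploid 2, 3 or 7 (exact adjusted p of 0.0508 to 0.0610), with differences of -0.157 to -0.129. The share of contacts between chromosomes was 6.97% ± 0.126 in gated and 6.28% ± 0.799 in unsorted libraries (exact adjusted p = 0.119), and passed without unsorted haploid 6 (difference 0.844 points, exact adjusted p = 0.0254). The replication score was 1.17 ± 0.0324 in gated and 1.15 ± 0.0384 in unsorted libraries (exact adjusted p = 0.425).

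**Figure D2:**
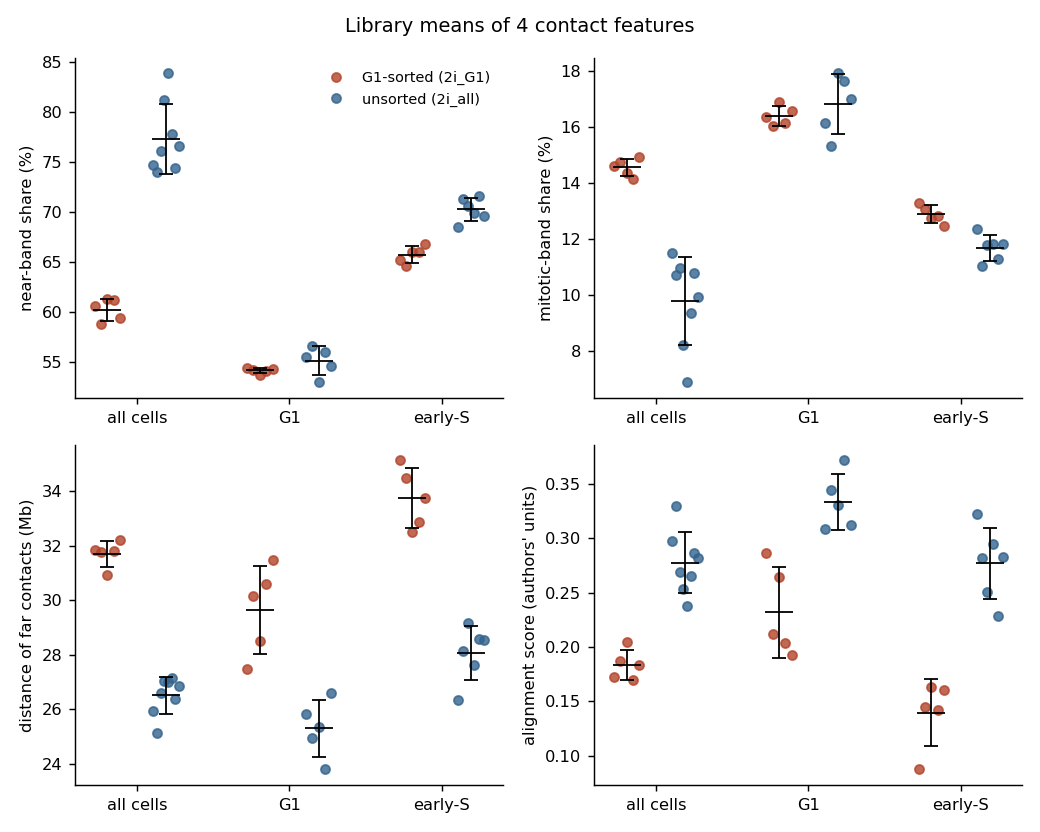
Each point is the mean over the cells of a library, for all passing cells, G1 cells and early-S cells, with the mean and SD over libraries in black. Band shares are in percent, far contacts in Mb and the alignment score in the authors' units. Bands separate the conditions over all cells and in early-S and overlap in G1. Far contacts and alignment are apart in all 3 settings, in G1 without passing the threshold.

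Only early-S cells in the first part of their range, up to position 607, were then compared, a limit chosen after the data had been seen that brings the positions of the conditions closer. The mean position then differed by -29.5 (exact adjusted p = 0.354). Far contacts still differed by 5.79 Mb and alignment by -0.150 (exact adjusted p = 0.0173 each). The near-band share differed by -3.67 points (exact adjusted p = 0.0173), and the mitotic band by 0.848 points without passing (exact adjusted p = 0.0693).

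The distance of far contacts was then followed along the order. In windows of 125 positions, 8 windows held at least 5 cells of each condition, pooled over libraries and with no test. Gated cells had longer far contacts in 8 of the 8, by 1.41 to 5.41 Mb, and a lower alignment score in 8 of the 8, with differences of -0.140 to -0.0608. In the first window the mean distance was 23.4 Mb in 39 gated cells and 19.1 Mb in 16 unsorted cells. At positions 251 to 375, across the border of G1 and early-S, it was highest in both, with 35.3 Mb in 77 gated and 31.6 Mb in 13 unsorted cells. At positions 751 to 875 it was 32.2 Mb in 8 gated and 27.3 Mb in 20 unsorted cells, and at 876 to 1000 the gap was narrowest, with 29.1 Mb in 6 gated and 27.7 Mb in 52 unsorted cells. The last 2 windows held 1 gated cell each, and that of the final window lay at 23.1 Mb, against a mean of 24.1 Mb in 88 unsorted cells. The alignment score of gated cells was lowest at positions 251 to 375, with 0.119, and that of unsorted cells at 626 to 750, with 0.225.

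**Figure D3:**
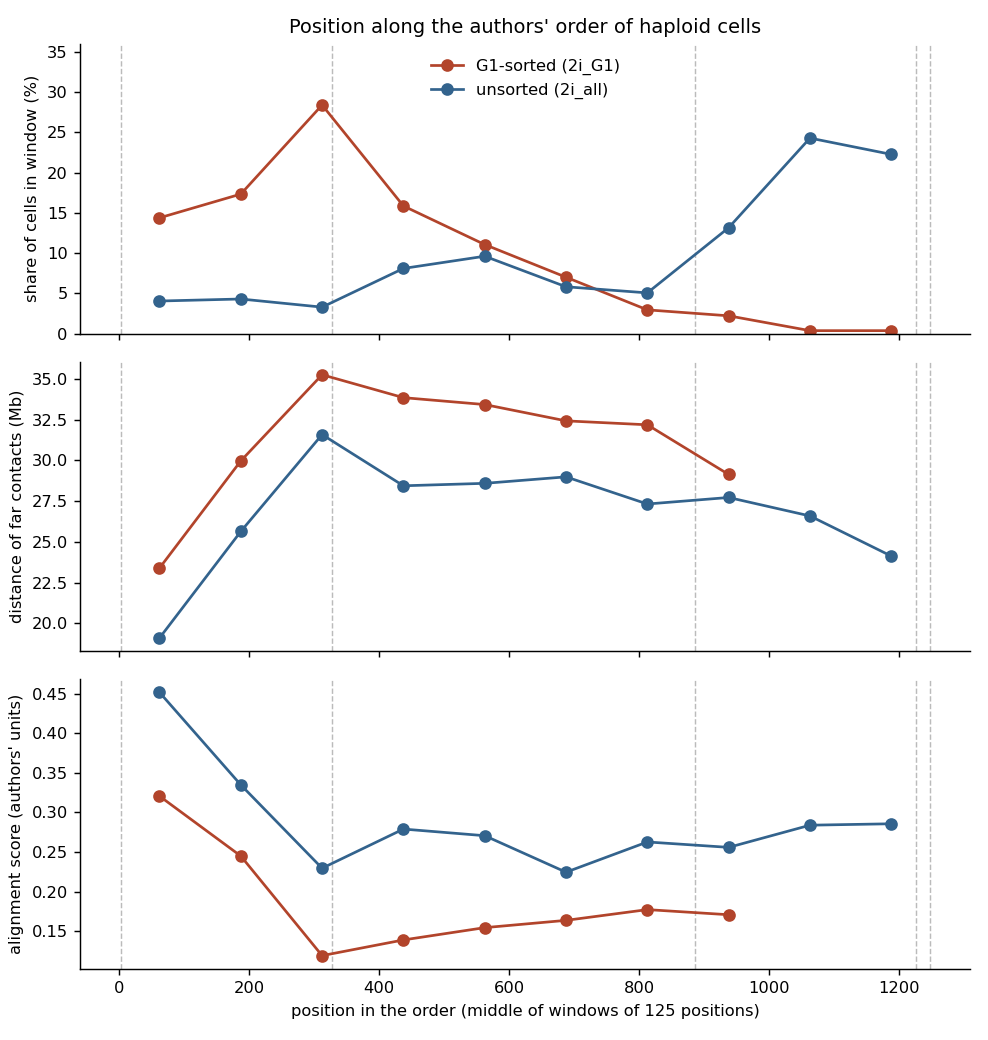
Points are means over the cells in successive windows of 125 positions of the authors' order, pooled over libraries, and dashed lines mark the ends of the groups. The upper panel gives the share of each condition's cells in a window in percent, the middle one the distance of far contacts in Mb and the lower one the alignment score, the last 2 only for windows with at least 5 cells. Gated cells gather at positions 251 to 375 with 28.4% of their number, and their far contacts are longer and their alignment scores lower in all 8 shared windows.

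The replication score was also higher in gated cells in 8 of the 8 windows, by 0.0242 to 0.0819, although over all cells it was lower. At positions 376 to 500 it was 1.14 in gated and 1.08 in unsorted cells, and at 751 to 875 it was 1.35 in gated and 1.30 in unsorted cells. By library the replication score did not pass within G1 or early-S (differences of 0.0368 and 0.0195, exact adjusted p = 0.152 and 0.425). The near-band share was lower in gated cells in 8 of the 8 windows, with differences of -4.11 to -1.60 percentage points. Cells of a window were thus not matched in that share, and its part in the replication score result was not tested. Depth moved with these results. Contacts per cell were higher in gated cells in 8 of the 8 windows, by 8304 to 38990. The share without digestion was lower in 8 of the 8, with differences of -9.12 to -3.08 percentage points, over pooled cells. By library it did not pass over all cells, in G1 or in early-S (exact adjusted p = 0.174, 0.621 and 0.402). Over all cells, unsorted haploid 1, 2 and 3 (27.2%, 27.3% and 26.8%) lay below every gated library, and haploid 6, 7 and 8 (35.4%, 39.3% and 36.7%) above. With only libraries of a median of at least 60000 contacts, the early-S difference was 1.62 points. The coverage deviation was lower in 8 of the 8 windows, with differences of -0.153 to -0.0390. Within early-S, contacts per cell averaged 74553 ± 14658 (SD, n = 5) in gated and 55024 ± 18859 (n = 6) in unsorted libraries (exact adjusted p = 0.165, and 0.0305 without gated haploid 10). The part of depth, digestion and uneven coverage in the replication score and near-band results was not tested, apart from the depth limits given above for the replication score over all cells. The depth limits given next show values for far contacts and alignment only.

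Limits on depth moved the early-S differences in far contacts and alignment little and the G1 ones more. Mean contacts per early-S cell ran from 49909 to 85394 in gated and from 25478 to 72578 in unsorted libraries, ranges that overlap only in part. As examples of like depth, gated haploid 10, with 49909 contacts in 8 cells, had a distance of 35.1 Mb. Unsorted haploid 8, with 49254 contacts, had 28.6 Mb. Gated haploid 11, with 72946 contacts, had 34.5 Mb and unsorted haploid 1, with 72578, had 26.3 Mb. These examples include the extremes, since haploid 10 had the longest distance of the gated libraries and haploid 1 the shortest of the unsorted ones. Unsorted haploid 3, with 69968.5 contacts, had 29.2 Mb, the longest of the unsorted libraries. The part of depth in these differences was not tested. With only cells of 39238 to 83770 contacts, the early-S difference was 5.60 Mb over 4 against 5 libraries. With only libraries of a median of at least 60000 contacts it was 5.52 Mb over 4 against 3. Alignment differed by -0.135 and -0.132 under these limits. With these fewer libraries no feature passed (exact adjusted p = 0.0847 and 0.102 for far contacts and alignment alike). With 4 against 3 libraries the exact test cannot go below p = 0.0571, so no feature could pass there. In G1 cells the limit to 39238 to 83770 contacts left 5 gated and 2 unsorted libraries, where far contacts differed by 2.38 Mb and alignment by -0.0423, against 4.34 Mb and -0.102 without it (exact adjusted p = 0.762 each). With the deeper libraries, 4 against 3, the G1 differences were 4.82 Mb and -0.110 (exact adjusted p = 0.183 each). Neither of these G1 settings could give a pass, since 5 against 2 libraries cannot go below an exact p of 0.0952.

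**Figure D4:**
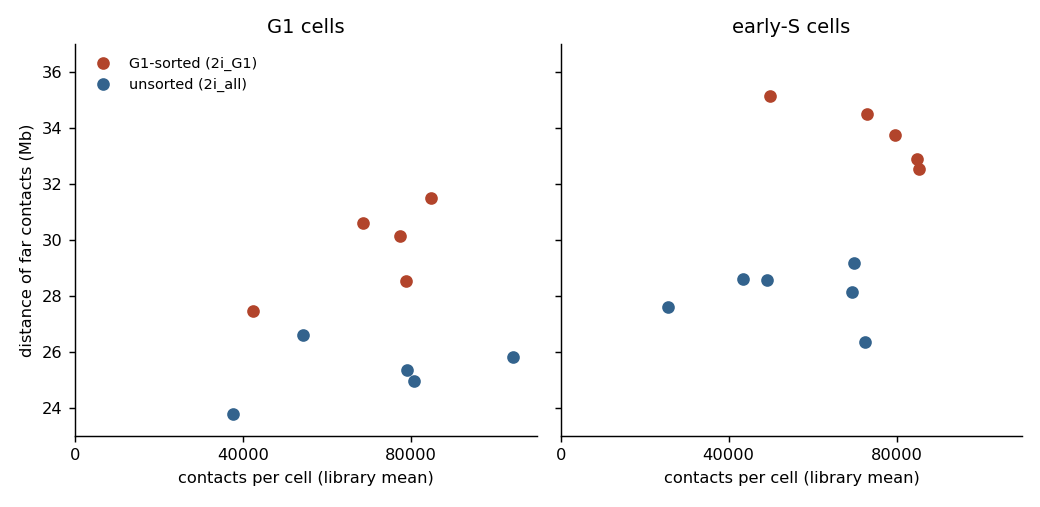
Each point is a library, with its mean contacts per cell on the horizontal axis and its mean distance of far contacts in Mb on the vertical axis, for G1 cells on the left and early-S cells on the right. In early-S, gated libraries lie at 32.5 Mb or more and unsorted libraries at 29.2 Mb or less, over ranges of depth that overlap only in part. In G1 the nearest libraries are gated haploid 10 at 27.5 Mb and unsorted haploid 8 at 26.6 Mb.

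Haploid cells of the condition Serum_G1/S, grown with serum, can be set beside both without a test, since medium and sort differ together. Where a library had 3 or more cells of a group, their far contacts spanned 24.7 to 27.9 Mb in G1 over 4 libraries and 26.9 to 28.2 Mb in early-S over 6 libraries. The gated 2i cells spanned 27.5 to 31.5 Mb and 32.5 to 35.1 Mb in these groups, and the unsorted 2i cells 23.8 to 26.6 Mb and 26.3 to 29.2 Mb. The alignment score of the serum cells was 0.318 to 0.377 in G1 and 0.286 to 0.315 in early-S. Pooled, 25.3% of the 581 serum cells were in G1, 53.9% in early-S and 18.8% in late-S/G2. In the diploid 2i cells of the condition 1CD_G1, grouped by the authors in a separate table, the G1 group held 221 of 280 cells, 78.9% (exact interval 73.7% to 83.6%), and early-S 18.9%. In the diploid condition NoSort of that table, G1 held 54 of 420 cells, 12.9%. Ploidy differs from the haploid cells and the sort may differ too, so these shares were not tested against the haploid gate.

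The step from G1 to early-S was compared within libraries that held at least 3 cells of both groups, 5 gated and 5 unsorted. No feature passed over 16 tests (0%), 3 had an unadjusted p under 0.05, and for 2 the libraries did not overlap (12.5%). The near-band share of early-S cells exceeded that of G1 cells by 10.8, 10.3, 12.2, 11.9 and 12.5 percentage points in gated haploid 10 to 14. In unsorted haploid 1, 2, 3, 7 and 8 it did so by 12.99, 14.7, 17.7, 15.7 and 15.0 points. Every gated library thus made a smaller step than every unsorted one, and the step in mean position was likewise shorter, 325 ± 21.3 (SD, n = 5) positions in gated and 416 ± 54.9 (n = 5) in unsorted libraries (exact p = 0.00794 and adjusted p = 0.0635 for each). As within G1, this is the smallest exact p possible, and it passes only where enough other features have a low p too. With at least 1 cell per group and library, which adds unsorted haploid 6 with a single G1 cell, both passed (exact adjusted p = 0.0346). The steps in far contacts, 4.11 ± 2.21 Mb in gated and 2.86 ± 1.67 Mb in unsorted libraries, and in alignment, -0.0921 ± 0.0647 in gated and -0.0600 ± 0.0582 in unsorted libraries, did not pass (exact adjusted p = 0.667 each). Libraries of the conditions were thus apart in these 2 features in both groups, and the size of the difference was not shown to vary from G1 to early-S.

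The 7 gated cells in late-S/G2 lay in haploid 11, 12, 13 and 14, with 1, 1, 3 and 2 cells, against 224 such cells in the unsorted libraries. Only haploid 13 reached 3 cells, so the comparison with at least 3 cells has no test. Most of the 7 stood near the start of late-S/G2, at positions 890, 892, 893, 899 and 919, and the other 2 at 1058 and 1131. Their near-band share was 75.4% to 80.8%, with a median of 77.4%, against a median of 82.8% in the 224 unsorted cells. The median distance of their far contacts was 32.4 Mb, compared with 26.2 Mb in the unsorted cells. The last of the 7, at position 1131, stood apart from the others, with 23.1 Mb, an alignment score of 0.415, a replication score of 1.09 and 166836 contacts. With at least 1 cell per library, 4 gated libraries against 8 unsorted ones, 3 features passed, each with exact adjusted p = 0.0215. These were the near-band share (77.9% in gated and 82.8% in unsorted libraries), the mitotic-band share (9.64% in gated and 7.73% in unsorted libraries) and the position in the order (939 in gated and 1083 in unsorted libraries). The groups are stretches of the order and separate largely on the bands, so these 3 features are not independent of the grouping. The gated values rest on 1, 1, 3 and 2 cells, so this test adds little to the positions given above. Far contacts then averaged 28.9 ± 4.495 Mb (SD, n = 4) in gated and 26.2 ± 0.863 Mb (n = 8) in unsorted libraries, without passing (exact adjusted p = 0.237).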

How the data were processed

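Per the submitters' processing notes, Bowtie2 and the genome build mm9 were used for the reads. The deposited tables hold 1 row per cell. Contacts per cell are a deposited count, the shares (bands, between chromosomes, without digestion, duplicated) are each a deposited fraction, shown in percent, and compartment, insulation, alignment, replication and coverage values are each a deposited score of undefined scale. Loop enrichments were read as log2 from the range of the deposited values. Far distance is given by the authors in bp and shown in Mb, and order, group, condition and quality flag are the authors' own.

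Batch numbers of the haploid table were joined to libraries through the deposited cell list, and 1 batch number with no passing cell was not mapped. Passing cells were averaged per library and group with at least 3 cells. Library labels were permuted exactly, two-sided, with Benjamini-Hochberg correction over 16 features or 5 groups and an adjusted p of 0.05 as threshold. A limit for a count of 0 is 3 cells over the total. The split of pooled differences averaged both orders of replacement. Gated cells were absent from post-M and pre-M, so their means there were set to those of the unsorted cells. Every feature was to be reported or counted, and no gene is named, as no value per gene was used. The comparisons, features and alternatives were chosen with earlier results of these data known. Alternatives were other minimums of cells, medians, pooled cells, limits on depth and coverage, and leaving out libraries. Computation ran in Python (3.11.15), scipy (1.17.1), numpy (2.4.6), matplotlib (3.10.9) and pandas (2.3.3), and the test was tested on simulated data. Nuclear RNA was not used here.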

Additional observations from a re-analysis of the deposited data

Results flagged for a closer look

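In 136 sets of library values, each of 4 to 10 libraries of a condition, 11 values lay far from the nearest other library relative to the range, and chance gives about 1 such set in 20. Gated haploid 10 accounts for 5. It had 46700 contacts per cell, against 76085 to 84550 in the other gated libraries. Its duplicated share was 1.48% over all cells and 1.58% in early-S cells, against at most 1.02% in the others in both. Its early-S cells had an alignment score of 0.0875, against 0.142 to 0.163, and a mean position of 465, against 515 to 528. Haploid 10 rests on 14 passing cells, 8 of them in early-S.

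Gated haploid 11 had an early-S coverage deviation of 0.279, against 0.222 to 0.231 in the other gated libraries. Among unsorted libraries, the G1 cells of haploid 8 had 7.04% of contacts between chromosomes, against 4.25% to 5.00% in the others. Its step from G1 to early-S in that share was -1.999 points, whereas the others gained 1.02 to 2.22 points. Haploid 5, with 4 passing cells, had a compartment score within chromosomes of 0.445, against 0.341 to 0.383. Haploid 4, with 6 passing cells, had a log2 EE loop enrichment of 0.62, against 0.92 to 1.17. The post-M share was 2.17% in haploid 1, from a single cell, and 0 in the other unsorted libraries.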

How the results depend on the processing

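The direction and call of the G1, early-S and late-S/G2 shares were kept under each alternative run. Pre-M passed with libraries of at least 10 passing cells (-3.54 points). Over all cells, 8 to 11 features passed. Within early-S the count of 5 became 0 with at least 10 cells, with the limit to cells of 39238 to 83770 contacts, and with libraries of a median of at least 60000 contacts, where fewer libraries raise the smallest p, and 4 to 6 when a library was left out. For the step from G1 to early-S, 2 features passed with at least 1 cell. Contacts per cell passed only in early-S without gated haploid 10 (exact adjusted p = 0.0305). Their difference turned sign over all cells with the deeper libraries (-3835), and lay between -1265 and 11492 when a library was left out. In G1 cells they turned with at least 1 cell (7584), at least 5 cells (13331) that limit on contacts (8580) and pooled cells (19078), and lay between -9220 and 7399 when a library was left out. Early-S alignment did not pass with at least 1 cell, which adds the single cell of haploid 4 (-0.101, exact adjusted p = 0.131). In features not named one by one, 36 of 484 values turned sign and 0 passed. The cause of these changes was not tested beyond the loss of libraries.

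No paired analysis was possible because no library holds both conditions. Cells that failed quality control carry no group and could not be added. No cell had a coverage deviation of 1 or more, so that limit changed nothing. Within G1 at least 10 cells left 1 unsorted library and no test. Late-S/G2 was run with at least 1 cell only.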
